A study of Arabidopsis thaliana with 6 samples.

Results

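Transcript levels of 9 *Arabidopsis thaliana* genes that maintain DNA methylation were compared between *3h1* and wild-type (wt) seedlings. The genes were chosen by function and taken by their gene identifiers from the 26764 genes of the deposited count table. They are *MET1* (AT5G49160), *CMT2* (AT4G19020), *CMT3* (AT1G69770), *DRM2* (AT5G14620), *DDM1* (AT5G66750), *KYP* (AT5G13960), *SUVH5* (AT2G35160), *VIM1* (AT1G57820) and *VIM3* (AT5G39550). All 9 passed the filter on low counts and were among the 17453 genes tested. The *3h1* plants carry the T-DNA insertion alleles *h1.1-1*, *h1.2-2* and *h1.3-2*, which hit all 3 genes for linker histone H1, in the Col-0 accession. The *h1.3* allele came from the L*er* accession, and the study's methods report that some L*er* sequence remained after backcrossing, mainly near *H1.3*. The wt plants were of the Col-0 accession. Pools of 3-week-old seedlings grown in long days gave 3 biological replicates of each genotype.

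Plants methylate cytosine in the CG, CHG and CHH contexts, where H is any base but G, and each context is kept by its own enzymes after DNA replication. MET1 copies CG methylation onto the new strand, guided by VIM proteins that bind hemimethylated DNA. CMT3 and CMT2 bind dimethylated lysine 9 of histone H3 (H3K9me2) and methylate CHG sites and, in the case of CMT2, CHH sites. KYP and SUVH5 bind methylated DNA and place H3K9me2, so that both marks feed each other. DRM2 methylates CHH sites guided by small RNAs, and the chromatin remodeller DDM1 gives the methyltransferases access to heterochromatin. Linker histone H1 binds the DNA that enters and leaves the nucleosome, and work in *Arabidopsis* has tied its loss to a lesser need for DDM1 in heterochromatic methylation. Transcripts, and not methylation, were measured here.

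The expected count per library was between 5115676 and 6174881 in *3h1* and between 4753812 and 5924967 in wt. Chloroplast genes held 52.2 to 54.5% of it in *3h1* and 55.5 to 60% in wt. Median counts over the tested genes were 38 to 51 in *3h1* and 29 to 43 in wt. The genotype labels were checked on the mutated genes. *H1.1* had 12.5, 19.4 and 17.9 CPM (counts scaled to a library total of 1000000, with TMM factors) in *3h1* and 68.3, 103 and 70.8 CPM in wt. *H1.2* had 12.8, 14.2 and 13.2 CPM in *3h1* and 69, 87.2 and 85.2 CPM in wt. Both were lower in *3h1* (edgeR quasi-likelihood test, adjusted p = 0.00163 for *H1.1* and 4.05e-05 for *H1.2*), and *H1.3* was not analysed here. Values below are in the same TMM-scaled CPM, listed as replicates 1, 2 and 3, and fold changes are of *3h1* over wt.

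For none of the 9 maintenance genes did the difference between *3h1* and wt pass the test against the spread between replicates. Their log2 fold changes lay between -0.10 (*VIM3*) and 0.61 (*KYP*), with a median of 0.22, against a median of 0.011 over all genes tested. At an adjusted p under 0.05 (edgeR quasi-likelihood), 0 of 9 were called, against 0.0401% of all genes (0.0172% higher and 0.0229% lower in *3h1*). Those were 7 genes over all, and 96 without *3h1* replicate 2, when again 0 of the 9 were called. At an unadjusted p value under 0.05 also, 0 were higher and 0 were lower in *3h1*, against 5.33% and 4.17% of all genes. The rule of an unadjusted p value under 0.05 with a fold change over 2 likewise took 0 of the 9, against 2.63% of all genes in the higher and 0.435% in the lower direction. The fitted change was above 0 for 7 of 9 genes, which held for 51.2% of all genes. For 7 of 9 genes the 95% interval lay within a fold change of 2 in either direction, and 63.9% of all genes had an interval that narrow. The exceptions were *KYP* and *SUVH5*. With 3 libraries against 3, an exact permutation test of 1 gene cannot give a two-sided p value under 0.1. In RNA from whole seedlings, fewer cells that express a gene and less RNA per cell cannot be told apart.

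**Figure D1:**
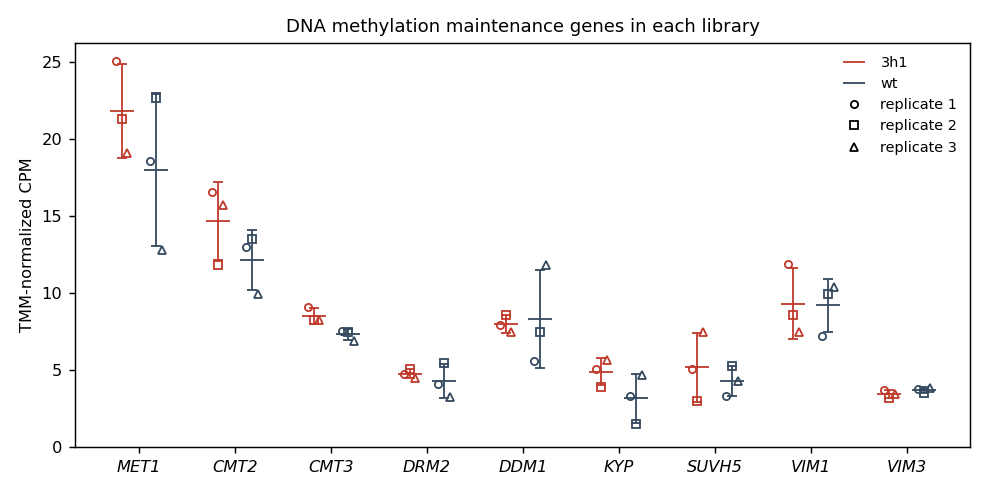
Level of each maintenance gene in every library, in TMM-scaled CPM. Open symbols are the 3 replicates, horizontal bars the mean and vertical bars the SD, with *3h1* left of wt for each gene. *CMT3* is the gene whose *3h1* libraries all lie above its wt libraries (8.22 to 9.1 against 6.9 to 7.55 CPM).

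*MET1*, the methyltransferase that maintains CG methylation, lies on chr5:19932114-19938470 (TAIR10.1, plus strand). It had the highest mean CPM of the 9 genes in both genotypes, with 25.1, 21.3 and 19.1 CPM in *3h1* and 18.6, 22.7 and 12.8 CPM in wt. The genotypes overlapped, since wt replicate 2 lay above *3h1* replicates 2 and 3, and a *3h1* library was the higher in 7 of 9 pairs of libraries. The mean was 21.8 ± 2.99 CPM in *3h1* and 18 ± 4.97 CPM in wt (SD, n = 3 each). This gave a log2 fold change of 0.29 ± 0.21 (SE) with a 95% interval of -0.17 to 0.74 (edgeR quasi-likelihood test, adjusted p = 0.705). On a linear scale, the interval ran from a fold change of 0.888 to one of 1.67. Single wt libraries moved the value, to 0.075 without wt replicate 3 and 0.46 without wt replicate 2 on the log2 scale.

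The chromomethylases *CMT2* and *CMT3* showed small differences in the same direction. *CMT2* (chr4:10414428-10421265, plus strand) had 16.6, 11.8 and 15.7 CPM in *3h1* and 13, 13.5 and 9.94 CPM in wt. The ranges overlapped, since *3h1* replicate 2 lay below 2 of the wt libraries. The log2 fold change of *CMT2* was 0.28 ± 0.20 (SE), with an interval of -0.16 to 0.72 (edgeR quasi-likelihood test, adjusted p = 0.698). *CMT3* (chr1:26248118-26253687, minus strand) had 9.1, 8.22 and 8.23 CPM in *3h1* and 7.55, 7.48 and 6.9 CPM in wt. It was the 1 gene of the 9 whose genotypes did not overlap, with all *3h1* libraries above all wt libraries, a pattern that 7.57% of all genes tested had in this direction. None of the 9 had the opposite pattern, which 7.5% of all genes had. The mean of *CMT3* was 8.52 ± 0.505 CPM in *3h1* and 7.31 ± 0.358 CPM in wt (SD, n = 3 each). Its fold change was 1.16, with an interval from 0.86 to 1.58 (edgeR quasi-likelihood test, adjusted p = 0.765).

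*DRM2*, the methyltransferase of the RNA-directed pathway, lies on chr5:4715105-4718704 (minus strand). It had 4.77, 5.04 and 4.49 CPM in *3h1* and 4.11, 5.48 and 3.25 CPM in wt. The wt libraries spanned the whole *3h1* range, with the highest and the lowest value both in wt. Its log2 fold change was 0.17 ± 0.29 (SE), with an interval of -0.47 to 0.80 (edgeR quasi-likelihood test, adjusted p = 0.889). Behind these values stood expected counts of 16 to 32.35 per library.

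*DDM1*, the SWI2/SNF2-type remodeller, lies on chr5:26648897-26653191 (plus strand). It had 7.91, 8.59 and 7.48 CPM in *3h1* and 5.58, 7.48 and 11.8 CPM in wt. The *3h1* libraries lay close together, and both extremes were wt libraries. The mean was 7.99 ± 0.563 CPM in *3h1* and 8.28 ± 3.17 CPM in wt (SD, n = 3 each), and the log2 fold change of -0.044 had an interval of -0.64 to 0.55. The adjusted p was 0.974 (edgeR quasi-likelihood test). The sign was not stable. Without wt replicate 3 the log2 fold change was 0.29, still with an unadjusted p value above 0.05 in the same test. It was 0.0034 without *3h1* replicate 3 and 0.034 with limma voom. *DDM1* is transcribed in dividing cells. Promoters were searched for 1 exact form of the E2F core motif, TTCCCGC or its reverse complement GCGGGAA, between 250 bases upstream and 50 bases downstream of the start. The *DDM1* promoter was the only one of the 9 with this exact form, and other forms of the E2F site were not searched. The 30 bases around it are shown for the position of the match, with the motif in capitals and its first base 32 bases upstream of the start, on chr5:26648853-26648882 of the TAIR10.1 assembly (plus strand), as read from the RefSeq genome sequence.
*DDM1* promoter: gtcatttcaagcTTCCCGCccatgggcgct
The motif was found on either strand in 421 of 27443 promoters of protein-coding genes (1.53%) and in 8 of 17 genes of a list of S phase and mitosis genes (47.1%). A match describes the sequence and does not show that a factor binds it.

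The H3K9 methyltransferase genes were the least precisely measured. *KYP* (chr5:4501362-4506250, plus strand) had expected counts of 34, 21 and 38 in *3h1* and 20, 6 and 23 in wt. This came to 5.07, 3.92 and 5.68 CPM in *3h1* and 3.28, 1.5 and 4.67 CPM in wt, so that wt replicate 2 was lowest and a *3h1* library was the higher in 8 of 9 pairs. *KYP* would not have passed the filter on low counts by its wt libraries, so its level in *3h1* decided that it was tested. Its log2 fold change of 0.61 ± 0.38 (SE) was the largest of the 9 genes. Its interval ran from -0.21 to 1.43, or from a fold change of 0.864 to one of 2.7 (edgeR quasi-likelihood test, unadjusted p value 0.13, adjusted p = 0.646). Leaving out wt replicate 3 gave a log2 fold change of 0.96 with an unadjusted p value of 0.0397, which makes 1 of the 9 genes higher at that threshold. Leaving out wt replicate 2, the library with 6 counts, gave 0.30. *KYP* overlaps AT5G13970 on the opposite strand, and strand use in counting is not given in the sources used here, so reads of both genes may not have been told apart. *SUVH5* (chr2:14822774-14826194, plus strand) had 5.07, 2.99 and 7.48 CPM in *3h1* and 3.28, 5.23 and 4.26 CPM in wt. Both its highest and its lowest value were in *3h1*. Its log2 fold change was 0.32 ± 0.36 (SE), with an interval of -0.47 to 1.1 (edgeR quasi-likelihood test, adjusted p = 0.813). Without *3h1* replicate 3 the log2 fold change was -0.04.

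*VIM1* and *VIM3* encode RING-type ubiquitin ligases with an SRA domain, which recognises hemimethylated CG sites. They belong to a family with near-identical copies, and the authors' counting divided reads that map equally well to several places between those places. The coding sequence of *VIM3* was 96.0% identical to that of both *VIM2* and *VIM4*, with a longest shared run of 116 bases, whereas *VIM1* and *VIM3* were 81.0% identical and *VIM2* and *VIM4* were 99.5% identical. A 60-base stretch of exon sequence from the TAIR10.1 assembly (RefSeq) is shown to let the copies be compared, 5′ to 3′ on the coding strand, with bases that differ from *VIM3* in capitals.
*VIM3*, chr5:15838979-15839038, minus strand: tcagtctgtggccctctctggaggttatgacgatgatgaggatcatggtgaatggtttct
*VIM2*, chr1:24590960-24591019, plus strand: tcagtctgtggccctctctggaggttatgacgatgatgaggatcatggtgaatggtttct
*VIM4*, chr1:24585414-24585473, minus strand: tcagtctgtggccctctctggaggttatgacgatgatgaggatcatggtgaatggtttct
*VIM1*, chr1:21416386-21416445, minus strand: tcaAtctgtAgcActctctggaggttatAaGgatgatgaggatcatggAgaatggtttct
*VIM5*, chr1:21410362-21410421, minus strand: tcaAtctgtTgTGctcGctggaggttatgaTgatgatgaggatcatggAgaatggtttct
A read that lies wholly within this stretch cannot be assigned to 1 of *VIM2*, *VIM3* and *VIM4*, while *VIM1* differed from *VIM3* at 6 and *VIM5* at 7 of the 60 bases. Of all 50-base windows within the exons of *VIM3*, 268 of 1818 (14.7%) occurred elsewhere in the genome, against 67.2% for *VIM2* and 0 for *VIM1* and for the other 7 maintenance genes.

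*VIM1* (chr1:21413981-21418115, minus strand) had 11.9, 8.59 and 7.48 CPM in *3h1* and 7.23, 9.97 and 10.4 CPM in wt. The genotypes overlapped over most of their ranges, although the single highest library was in *3h1* and the lowest in wt. Fitted over all libraries, the log2 fold change was 0.038, with an interval of -0.49 to 0.57 (edgeR quasi-likelihood test, adjusted p = 0.974). Its sign changed with the library left out, to -0.19 without *3h1* replicate 1 and to -0.13 without wt replicate 1. *VIM3* (chr5:15837178-15840678, minus strand) had 3.73, 3.18 and 3.44 CPM in *3h1* and 3.78, 3.49 and 3.86 CPM in wt. The SD was 0.277 CPM in *3h1* and 0.193 CPM in wt, and a *3h1* library was the higher in 1 of 9 pairs. Its log2 fold change was -0.10 ± 0.30 (SE), with an interval of -0.76 to 0.55 (edgeR quasi-likelihood test, adjusted p = 0.937). Summing *VIM2*, *VIM3* and *VIM4*, an alternative chosen after seeing the data, avoids the division of reads among them. The sum was 5.97, 5.61 and 5.24 CPM in *3h1* and 7.08, 4.57 and 6.49 CPM in wt. Its log2 fold change was -0.12, with an interval of -0.68 to 0.44 (edgeR quasi-likelihood test, adjusted p = 0.912). The wt libraries lay on both sides of the *3h1* range.

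**Figure D2:**
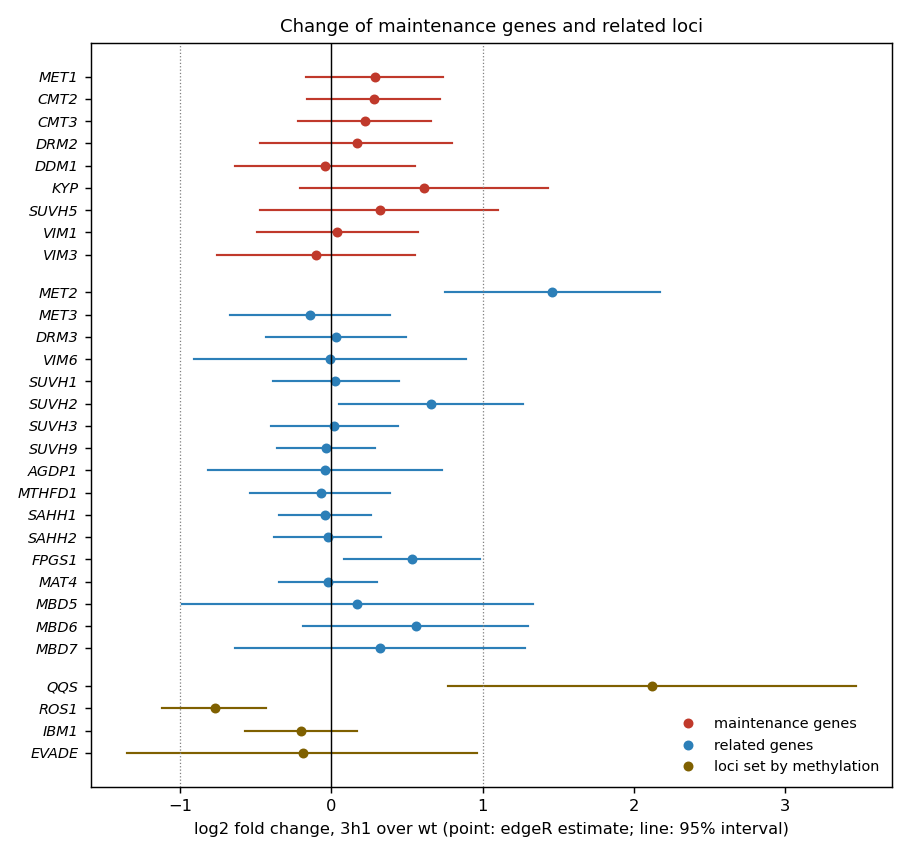
Log2 fold change of *3h1* over wt for the maintenance genes, the tested genes of a list of related genes, and the tested loci known to be set by methylation. Points are edgeR estimates, lines 95% intervals, and dotted lines mark a fold change of 2 in either direction. The intervals of all 9 maintenance genes cross 0, and those of *MET2*, *SUVH2*, *FPGS1*, *QQS* and *ROS1* do not.

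Levels of different genes were compared per exon length, as RPKM (CPM without TMM factors, divided by the exon length in kilobases). *MET1* averaged 4.63 ± 0.651 RPKM in *3h1* and 3.27 ± 0.882 RPKM in wt, and *VIM1* averaged 4.05 ± 1.03 RPKM in *3h1* and 3.34 ± 0.37 RPKM in wt (SD, n = 3 each). The lowest means over all 6 libraries were those of *VIM3*, with 1.65 ± 0.14 RPKM in *3h1* and 1.52 ± 0.218 RPKM in wt, and *SUVH5*, with 1.68 ± 0.764 RPKM in *3h1* and 1.15 ± 0.15 RPKM in wt. By the mean over all libraries of both genotypes, the order was *MET1*, *VIM1*, *CMT2*, *DDM1*, *CMT3*, *DRM2*, *KYP*, *VIM3* and *SUVH5*. The order differed within a genotype. In *3h1* the change was at the low end, where *SUVH5* stood above *VIM3*. In wt *VIM1* stood above *MET1* and *DDM1* above *CMT2*, and *KYP* was last, below *VIM3* and *SUVH5*. Of the neighbours in this order, *CMT3* was above *DRM2* in 6 of 6 libraries. Every other neighbouring pair was ordered in 4 or 5 of 6 libraries, and the ranges of all neighbours overlapped over the 6 libraries. The median over 17237 tested genes with an exon length was 4.22 RPKM in *3h1* and 3.57 RPKM in wt. *MET1* stood at the 53.5th percentile of these genes in *3h1* and at the 46.4th in wt, and *KYP* stood at the 21.2nd percentile in *3h1* and at the 12.6th in wt. All 9 RPKM means were higher in *3h1*, including those of *DDM1* and *VIM3*, whose TMM-scaled CPM means were lower. RPKM here keeps the chloroplast counts in the total without TMM scaling, and the medians over all genes differ between genotypes on this scale as well. With nuclear counts alone as the total, *VIM3* was lower in *3h1*, with 3.61 RPKM in *3h1* and 3.74 RPKM in wt, and *DDM1* had 6.8 RPKM in *3h1* and 6.75 RPKM in wt.

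**Figure D3:**
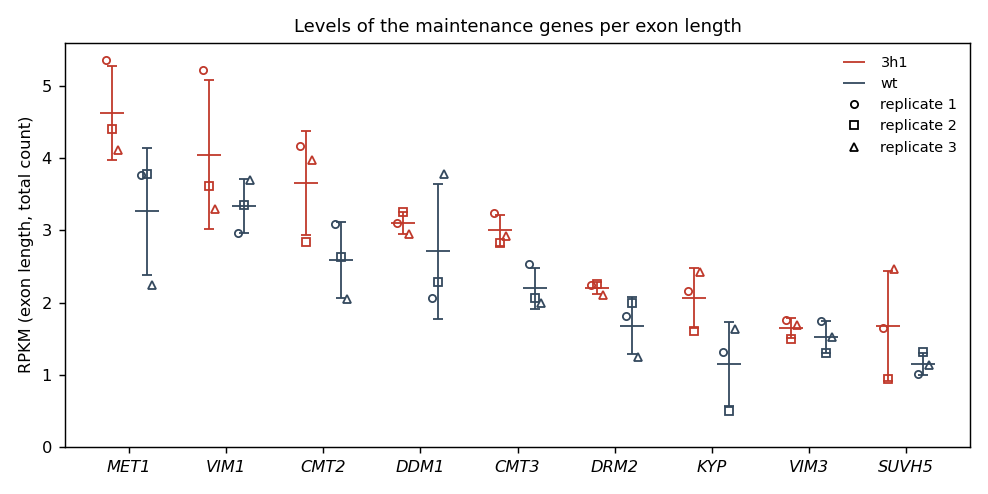
RPKM of each maintenance gene per library (exon length and total count), ordered by the mean over all libraries, with *3h1* left of wt. Horizontal bars are means and vertical bars SD of 3 replicates. Neighbouring genes overlap in their ranges, with *MET1* (4.63 RPKM in *3h1* and 3.27 RPKM in wt) at one end and *SUVH5* (1.68 RPKM in *3h1* and 1.15 RPKM in wt) at the other.

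The summed level of the 9 maintenance genes was 89.2, 73.6 and 79.1 CPM in *3h1* and 66.4, 76.8 and 67.8 CPM in wt, and the genotypes overlapped, since wt replicate 2 lay above *3h1* replicate 2. The highest library was *3h1* replicate 1 for 4 of the 9 genes, and the lowest was wt replicate 3 for 4. That wt library was also the highest for *DDM1* and *VIM3*.

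A list of 27 further genes of the same pathways was then examined: paralogs of the maintenance genes, enzymes that supply the methyl group, and proteins that read methylated DNA. Of these, 25 were in the table and 17 were tested. At an adjusted p under 0.05 (edgeR quasi-likelihood) 0 were called, and 3 were higher and 0 lower in *3h1* at an unadjusted p value under 0.05, against 5.33% and 4.17% of all genes. The median log2 fold change over the 17 genes was 0.019. The 3 genes were *MET2*, *SUVH2* and *FPGS1*. Only *MET2* had an unadjusted p value under 0.05 without *3h1* replicate 1, without *3h1* replicate 3 or with DESeq2, a count of 1 each.

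*MET2* (AT4G14140), a *MET1* paralog of little known function, was the 1 gene among the 17 tested that passed the rule with a fold change over 2. Over all genes tested, 2.63% passed it in the higher and 0.435% in the lower direction. *MET2* would not have passed the filter on low counts by its wt libraries, so its level in *3h1* decided that it was tested. With at least 10 counts required in every library, *MET2* was not tested. It had 11.6, 6.17 and 8.53 CPM in *3h1* and 3.94, 1.99 and 3.45 CPM in wt, so that the genotypes did not overlap, as for 7.57% of all genes tested. For *MET2* the log2 fold change was 1.46 ± 0.32 (SE), with an interval of 0.75 to 2.17 (edgeR quasi-likelihood test, unadjusted p value 0.00084, adjusted p = 0.234). *MET2* shares 12.4% of its 50-base exon windows with other places in the genome, and its expected count was not a whole number in 5 of 6 libraries. Summed with its close copy *MET2b*, which was too low to be tested alone, the log2 fold change was 1.32 with an interval of 0.64 to 2.00 and an adjusted p value of 0.263 in the same edgeR quasi-likelihood test. *MET1* itself, with no shared window, had a log2 fold change of 0.29. *SUVH2*, which binds methylated DNA and serves the RNA-directed pathway, had 8.5, 5.61 and 9.87 CPM in *3h1* and 6.08, 4.99 and 4.06 CPM in wt. Its ranges overlapped, and its p values were 0.0355 unadjusted and 0.485 adjusted (edgeR quasi-likelihood test). *FPGS1*, a folylpolyglutamate synthetase of the one-carbon supply, had 10.6, 9.9 and 10.9 CPM in *3h1* and 6.08, 7.48 and 8.32 CPM in wt. Its genotypes did not overlap, with a fold change of 1.44 (edgeR quasi-likelihood test, unadjusted p value 0.0244, adjusted p = 0.442). *FPGS1* overlaps AT5G01125 and AT5G05970 on the opposite strand, and *SUVH2* overlaps AT2G08565. As for *KYP*, reads of overlapping genes may not have been told apart.

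Of the other paralogs, *DRM3*, a catalytically inactive partner of *DRM2*, had 10.6, 9.34 and 14.5 CPM in *3h1* and 10.2, 11.5 and 12.4 CPM in wt, and a log2 fold change of 0.027. *MET3*, a further *MET1* paralog, ranged more widely, with 44.9, 46.9 and 78.1 CPM in *3h1* and 53.7, 83.3 and 50.7 CPM in wt. Several close paralogs were too low to be tested. *VIM2* had expected counts of 7.598, 5.6 and 6.415 in *3h1* and 13.81, 3.33 and 9 in wt. *VIM4* had 7.802, 7.158 and 5.279 counts in *3h1* and 6, 1 and 4 in wt. *VIM5* had 10.48, 3 and 9 counts in *3h1* and 2.026, 7.348 and 6.118 in wt. The paralogs of the non-CG methyltransferases were as low. *CMT1* had 11.6, 1 and 13 counts in *3h1* and 5, 1 and 0 in wt, and *DRM1* had 11, 0 and 8.087 counts in *3h1* and 3.038, 6 and 0 in wt. *SUVH6* was not analysed here. *SAHH1*, which clears the by-product of the methyl transfer from S-adenosylmethionine, averaged 265 ± 19.7 CPM in *3h1* and 274 ± 17.1 CPM in wt (SD, n = 3 each), and its log2 fold change of -0.044 had an interval of -0.35 to 0.26.

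Loci whose transcription is known to depend on DNA methylation were also examined, by transcript level only. Their methylation was not measured, and whether it differed between genotypes was not tested. Of 8 such loci, 7 were in the table and 4 were tested, with 0 called at an adjusted p under 0.05 (edgeR quasi-likelihood). At an unadjusted p value under 0.05, 1 was higher and 1 was lower in *3h1*, against 5.33% and 4.17% of all genes tested. *ROS1*, a DNA demethylase whose promoter methylation promotes its transcription, had 28.9, 24.1 and 33.7 CPM in *3h1* and 45.7, 47.9 and 55.2 CPM in wt. All *3h1* libraries lay below all wt libraries, a pattern that 7.5% of all genes tested had. The log2 fold change of *ROS1* was -0.77 ± 0.16 (SE), with an interval of -1.12 to -0.43 (edgeR quasi-likelihood test, unadjusted p value 0.000436, adjusted p = 0.2). *QQS*, a gene silenced by methylation of repeats at its 5′ end, had expected counts of 20.94, 13 and 12 in *3h1* and 1, 5 and 2 in wt. Again the genotypes did not overlap, a pattern that 7.57% of all genes tested had in this direction. *QQS* passed the filter on low counts only through its *3h1* libraries, so its level there decided that it was tested. Its log2 fold change was 2.12 ± 0.61 (SE) with an interval of 0.77 to 3.47 (edgeR quasi-likelihood test, unadjusted p value 0.00518, adjusted p = 0.327), from counts that reach 20.94 at most. It moved with single wt libraries, to 3.05 without wt replicate 2 and 1.59 without wt replicate 1. With at least 10 counts required in every library, *QQS* was not tested. *IBM1*, whose full-length transcript needs methylation within an intron, had 13.4, 11.4 and 12.1 CPM in *3h1* and 14.3, 13.2 and 14.8 CPM in wt, with a log2 fold change of -0.20 (edgeR quasi-likelihood test, adjusted p = 0.756). The retrotransposon *EVADE*, which is silenced by methylation, had 1.94, 0.747 and 3.74 CPM in *3h1* and 3.12, 2.74 and 1.62 CPM in wt. Of its 50-base exon windows, 77.7% occurred elsewhere in the genome, and its expected count was not a whole number in 3 of 6 libraries. Its values may therefore hold reads of other copies. The imprinted genes *FWA* and *PHE1* and the element gene *ATMU1* were too low to be tested, and *SDC* was not analysed here.

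**Figure D4:**
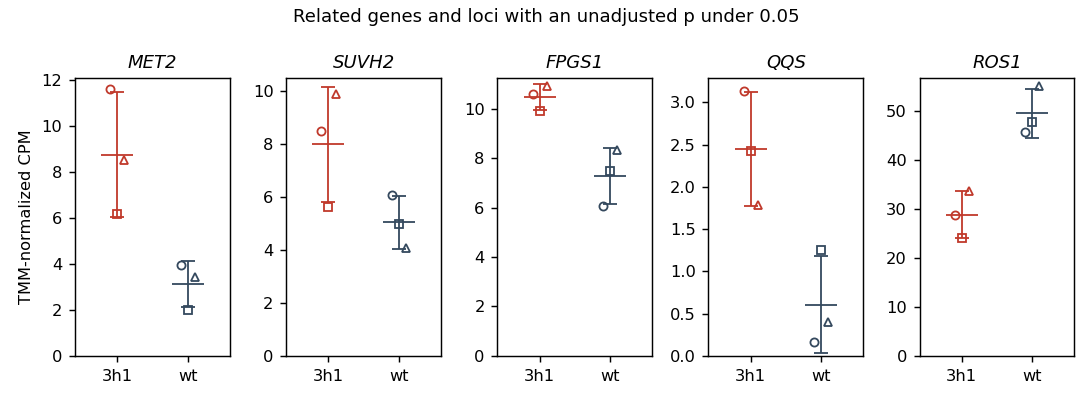
Level per library of the 3 related genes and the pair of methylation-dependent loci with an unadjusted p value under 0.05, in TMM-scaled CPM, with *3h1* left of wt. Symbols are the 3 replicates, horizontal bars the mean and vertical bars the SD. *ROS1* is lower in *3h1* (24.1 to 33.7 against 45.7 to 55.2 CPM), the other 4 are higher, and *SUVH2* overlaps between genotypes.

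Since many maintenance genes are transcribed in cells that replicate their DNA, markers of dividing cells and of other tissues were examined beside them. Of 17 S phase and mitosis genes, 16 were in the table and 15 were tested. At an unadjusted p under 0.05 (edgeR quasi-likelihood), 1 was higher and 0 were lower in *3h1*, against 5.33% and 4.17% of all genes tested. The median log2 fold change was 0.15. The 1 gene was *MCM3*, a subunit of the replicative helicase, named after its values were seen, with 10.7, 14.6 and 8.83 CPM in *3h1* and 7.72, 7.23 and 6.49 CPM in wt and a fitted log2 fold change of 0.66. It no longer passed without *3h1* replicate 2 or without wt replicate 3, and *KNOLLE* passed as lower without wt replicate 2, a count of 1. The most abundant of the list were *ICU2*, a DNA polymerase subunit, with 16.4, 15.5 and 23.9 CPM in *3h1* and 15.4, 13 and 15.8 CPM in wt, and *KNOLLE*, a cytokinesis syntaxin, with 12.4, 12.5 and 11.2 CPM in *3h1* and 12.2, 11 and 26.6 CPM in wt. The summed level of the 15 tested genes was 113 to 123 CPM in *3h1* and 102 to 120 CPM in wt. None of the 16 measured markers was at 0 in a library. Whether the share of dividing cells played a part in the levels of the maintenance genes was not tested.

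Markers of flowers, roots and leaf mesophyll were counted in the same way. Both tested floral genes of 7 in the table, *SEP1* and *SEP3*, were higher in *3h1* at an unadjusted p under 0.05 (edgeR quasi-likelihood). Over all genes tested, 5.33% were higher by this rule. Neither gene would have passed the filter on low counts by its wt libraries, so the level in *3h1* decided that both were tested. The sum of *SEP1* and *SEP3* was 5.42 to 15.1 CPM in *3h1* and 2.64 to 4.24 CPM in wt. It holds the same genes and is not separate from these calls. The other 5 floral genes were too low to be tested and are not in the sum. *SEP3* had expected counts of 26, 19 and 29 in *3h1* and 5, 9 and 4 in wt. *SEP1* had 4.18, 1.87 and 10.8 CPM in *3h1* and 1.97, 1.99 and 1.83 CPM in wt, so its genotypes overlapped. With limma voom, *SEP1* was not called. With at least 10 counts required in every library, 0 floral genes were called. The floral organ gene *AG* was at 0 in 1 library of each genotype, and *AP1*, *AP3* and *SEP2* were each at 0 in 1 wt library. Without *3h1* replicate 3, 1 floral gene passed, *SEP3*. Of 3 tested root genes 1 was higher, against 5.33% of all genes tested. It was *SHR*, a regulator of root patterning, with a log2 fold change of 0.84, while its partner *SCR* was at 0.038. The sum of these 3 genes, *SHR* included, was 14.4 to 19.5 CPM in *3h1* and 11 to 14.3 CPM in wt. The other 3 root genes in the table were too low to be tested and are not in the sum. Among them, *CASP1* was at 0 in 1 *3h1* library. The aquaporin gene *TIP2;3* passed as lower, a count of 1, without *3h1* replicate 2, without wt replicate 3 or with no filter on low counts. Of 5 tested mesophyll genes 2 were lower in *3h1*, against 4.17% of all genes tested. They were the light-harvesting protein genes *LHCB1.3* and *CAB3*, with log2 fold changes of -0.50 and -0.61. Only *CAB3* passed without *3h1* replicate 1 or wt replicate 1. Expected counts were not whole numbers in 4 of 6 libraries for *LHCB1.3* and in 6 of 6 for *CAB3*. How much sequence both genes share was not examined, so they may not be separate signals. The rubisco activase gene *RCA* was at -0.027. All 5 mesophyll markers had counts in every library, and their sum, with *LHCB1.3* and *CAB3* in it, was 7180 to 8200 CPM in *3h1* and 9170 to 10300 CPM in wt. The part of tissue composition in the levels of the maintenance genes, *MET2*, *QQS* and *ROS1* was not tested.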

How the data were processed

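RNA-seq libraries of 3 *3h1* and 3 wt replicates were used, grouped by the submitters' labels. Total RNA was depleted of ribosomal RNA and sequenced on an Ion Proton instrument. After the authors had filtered out residual ribosomal and spike-in reads, they aligned the rest to TAIR10 (named in the submitters' processing notes). Gene-level quantitation to ARAPORT11 used the expectation-maximization algorithm of Partek, which shares each multi-mapping read among its loci. What the authors deposited are expected counts, not normalized. A second deposited table, of the authors' own comparison (p values, FDR, ratios and group means), was not used. Strand use in counting is not given in the sources used here.

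After rounding of the expected counts, filterByExpr and TMM scaling, both genotypes were compared by edgeR's quasi-likelihood test (edgeR 4.0.16, R 4.3.3), and p values were adjusted over 17453 genes by the Benjamini-Hochberg method. Standard errors and 95% intervals were derived from the test statistic. RPKM used unrounded counts, the union exon length in TAIR10.1 and the total count. Exon windows, coding sequence identities and promoter motifs were computed with Python 3.11.15 and Biopython 1.88. The procedure was tested on simulated data. Alternatives were other normalizations, filters and tests (DESeq2 1.42.0 and limma 3.58.1 voom), unrounded counts, a replicate block, nuclear genes only, each library left out, and close copies summed, the last chosen after seeing the data.

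The 9 genes and the lists of related genes, loci and markers were chosen with earlier results of these data known. Named in the text are the 9 genes, the *H1* genes, related genes with an unadjusted p value under 0.05, close paralogs, the methylation-dependent loci, and the 2 most abundant tested markers of each tissue list. *MCM3*, *CAB3*, *TIP2;3*, *CASP1*, *AG*, *AP1*, *AP3*, *SEP2*, *MET3* and *SAHH1* were named after their values were seen. Of the listed genes, *H1.3*, *SUVH6*, *SUVH8*, *SDC*, *MCM5* and *LHCB2.1* were not analysed here.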

Additional observations from a re-analysis of the deposited data

How the results depend on the processing

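Over 16 alternatives, 0 of the 9 maintenance genes reached an adjusted p value under 0.05 in any test run. Leaving out single libraries gave 0 to 1 gene with an unadjusted p value under 0.05, the 1 being *KYP* without wt replicate 3, and *KYP* was not tested with at least 10 counts in every library. Some changes turned in sign or moved. Over the libraries left out, *MET1* ranged from 0.075 to 0.46, *CMT2* from 0.14 to 0.39, *KYP* from 0.30 to 0.96 and *QQS* from 1.59 to 3.05, while *DRM2* ranged from -0.0073 (without wt replicate 3) to 0.35, *DDM1* from -0.29 to 0.29 (without wt replicate 3, and 0.0034 without *3h1* replicate 3), *SUVH5* from -0.04 (without *3h1* replicate 3) to 0.55, and *VIM1* from -0.19 (without *3h1* replicate 1, and -0.13 without wt replicate 1) to 0.18. *DDM1* was at 0.034 with limma voom and *VIM1* at -0.019 with no filter on low counts. The cause was not tested. Of the related genes, 1 was higher at an unadjusted p value under 0.05 with DESeq2, and 1 to 4 were over the libraries left out, *CMT1* among them without *3h1* replicate 2 and without wt replicate 1. Of the markers of dividing cells, 0 to 1 were higher and 0 to 1 lower over the libraries left out. With no filter on low counts, *PHE1* and the root marker *TIP2;3* also passed as lower, and the floral marker *AP3* as higher. *ROS1* kept an unadjusted p value under 0.05 in 16 of 16 alternatives, *MET2* and *QQS* in 15 of 15 that tested them, and *SUVH2* and *FPGS1* in 11 of 16 each. The main filter on low counts kept *QQS* only through its *3h1* libraries. *MET2*, *KYP*, *SEP1* and *SEP3* would also not have passed that filter by their wt libraries. With nuclear counts alone as the total, which raises every RPKM, the mean of *VIM3* was no longer higher in *3h1* (3.61 RPKM in *3h1* and 3.74 RPKM in wt). Over all genes, 7 were called at an adjusted p value under 0.05 by edgeR, 33 by DESeq2, 12 with no filter, 3 with at least 10 counts in every library and 96 without *3h1* replicate 2.

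Same-numbered libraries of both genotypes did not deviate together, with correlations of -0.0504, -0.144 and -0.111, so the numbers were not taken as pairs. With the replicate number as a block, 0 of the 9 genes and 3 of all genes had an adjusted p value under 0.05, *KYP* was at 0.67 and *DDM1* at -0.0064, and no other call changed. Counts of 6 to 168 reads per library limit the precision for each maintenance gene, and intervals cover the spread between these libraries only.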
